A study of Mus musculus with 7 samples.

Results

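The genes *Apln* and *Aplnr*, which encode the peptide precursor apelin and its receptor, are 2 of the 24346 genes in a table of cortical expression from mice lacking the creatine transporter gene *Slc6a8*. They were taken by symbol, *Apln* because its level differs between the genotypes in these same animals and because the study also chose it for qPCR, and *Aplnr* as its receptor. Their levels by genotype are therefore given as a description, with no test. Bulk RNA-seq was performed on the cerebral cortex of 7 male mice at postnatal day 100 (P100), 1 library per animal. In the 4 CrT-/y animals exons 5 to 7 are deleted from *Slc6a8*, an X-linked gene, in the whole body, and the 3 CrT+/y animals are wild-type littermates. Both groups have a C57BL/6J background, and the labels name no treatment. Values are FPKM, fragments scaled to transcript length and to the mapped fragments of each library, as the authors deposited them.

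Apelin is made as a precursor whose carboxyl end is cut into short active peptides. They act on APJ, the G-protein-coupled receptor encoded by *Aplnr*, which also binds a different peptide, the product of *Apela*. In the vasculature *Apln* is best known from endothelial cells at the tips of growing vessels, where low oxygen raises its transcription through hypoxia-inducible factors, and the receptor is found on endothelial cells, mainly of veins, and on smooth muscle. Apelin widens vessels and takes part in fluid balance, and both genes have also been described in neurons of the hypothalamus.

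*Apln* (ENSMUSG00000037010.7) lies on the minus strand of the X chromosome, at chrX:48025146-48034853 of GRCm38, 25.6 Mb from *Slc6a8*, and has 1 annotated transcript of 3149 bases in 3 exons. Its coding sequence (234 bases with the stop codon, for 77 residues, on genomic bases chrX:48028299-48034505 with the introns in between) is shown because it holds the active peptide. The capitals mark the last 13 codons before the stop, which encode apelin-13.

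Apln coding sequence: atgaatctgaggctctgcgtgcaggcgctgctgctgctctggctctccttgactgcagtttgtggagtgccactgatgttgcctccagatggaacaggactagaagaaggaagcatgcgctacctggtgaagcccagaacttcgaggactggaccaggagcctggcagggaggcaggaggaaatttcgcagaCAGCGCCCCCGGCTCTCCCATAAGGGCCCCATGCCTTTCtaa

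The qPCR primers of the study are shown because they set which part of the transcript was followed there. Both match the 3′ UTR, which covers 2567 of the 3149 bases, and they bound an amplicon of 112 bases at chrX:48025970-48026081. FPKM count fragments over all exons, so the sequencing and the primers read overlapping but unequal stretches of the same transcript. The qPCR values were not used here.

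Forward primer, chrX:48026060-48026081: aggcatagcgtcctcacctctt
Reverse primer, chrX:48025970-48025991: ggtgcagaaacgacaaagacgg

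*Aplnr* (ENSMUSG00000044338.9) lies on the plus strand at chr2:85136225-85139923, and its longest transcript is a single exon of 3699 bases. *Apela* (ENSMUSG00000079042.10) lies on the minus strand at chr8:65028417-65037336.

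The deleted gene was read first as a check of the labels. *Slc6a8* (chrX:73673150-73682502) was at 12.4, 14.9, 14.7 and 15.7 FPKM in CrT-/y replicates 0 to 3 and at 32.3, 29.6 and 28.0 FPKM in CrT+/y replicates 1 to 3. No CrT-/y animal reached the lowest CrT+/y animal. The mean was 48.1% of the wild-type level (log2 fold change -1.05, SE 0.087, limma adjusted p = 0.00238). The FPKM cover the whole gene, including exons outside the deletion, and levels by exon were not analysed here. Over the whole table, 12988 genes had a mean of at least 1 FPKM and were tested, and 1318 of them (10.1%) passed at an adjusted p under 0.1, 377 (2.9%) higher and 941 (7.25%) lower in CrT-/y animals. The 28.6% share of higher calls depended on the scaling: it was 48.8% after quantile normalization, 48.2% after median centring and 56% with upper quartile scaling. The number of calls depended on single animals and lay between 64 (CrT-/y replicate 1 left out) and 3736 (CrT+/y replicate 3 left out). A depth of 21200000 to 29500000 fragments per library was estimated from the size of the smallest values, on the assumption that their step is 1 fragment and that the FPKM were not scaled further between libraries. CrT+/y replicate 2 stood apart in choroid plexus and ependyma markers, whose summed level was 397 FPKM there and 7.69 to 54.0 FPKM in the other 6 animals.

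*Apln* was present in every animal at a moderate level, and its mean exceeded that of 69.9% of the listed genes. It was at 6.92, 5.90, 5.73 and 7.04 FPKM in CrT-/y replicates 0 to 3 and at 14.1, 12.6 and 11.9 FPKM in CrT+/y replicates 1 to 3. The groups did not overlap, as in 21.6% of all tested genes (15% with CrT-/y lower). The highest CrT-/y animal had 59.3% of the level of the lowest CrT+/y animal, and the lowest CrT-/y animal 40.7% of the highest CrT+/y animal. The means were 6.40 ± 0.677 FPKM (SD, n = 4) and 12.8 ± 1.13 FPKM (SD, n = 3). CrT-/y animals thus had 49.8% of the wild-type level. On the log2(FPKM + 0.1) scale the difference was -0.996 with an SE of 0.097. Only 17 of the 12988 tested genes had a more negative fold change, which describes how far *Apln* stood out and is not a test, since the gene was chosen on this contrast.

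Within each genotype the animals were close to each other. The coefficient of variation was 10.6% in CrT-/y and 8.81% in CrT+/y animals, and the highest animal exceeded the lowest 1.23-fold and 1.19-fold. From the depth estimate, the *Apln* values rest on about 514, 393.3, 532.2 and 572 fragments in CrT-/y replicates 0 to 3 and on about 1042.1, 924.4 and 942.6 fragments in CrT+/y replicates 1 to 3. Counting error alone would then be 3.10% to 5.04% of the level. Without any 1 animal the log2 fold change lay between -1.05 and -0.93, and it was -1.01 without CrT+/y replicate 2.

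*Aplnr* was close to the limit of what these libraries can show. It was at 0.0259, 0.0429, 0.0828 and 0.131 FPKM in CrT-/y replicates 0 to 3 and at 0.0897, 0.0873 and 0.0236 FPKM in CrT+/y replicates 1 to 3. The groups overlapped: the lowest value belonged to CrT+/y replicate 3 and the highest to CrT-/y replicate 3, and animals of a genotype differed by more than the means did. The means were 0.0706 ± 0.0467 FPKM (SD, n = 4) and 0.0668 ± 0.0375 FPKM (SD, n = 3). In this range 1 fragment is worth about 0.0092 to 0.0128 FPKM, so the 7 values rest on about 2.2 to 12.5 fragments each. The gene lay under the filter of 1 FPKM. Fitted without that filter its log2 fold change was 0.02 with an SE of 0.27, and no difference between the genotypes was detectable at this depth. The added 0.1 exceeds most of these values, so this SE depends on it. It was 0.042 with 1 added and 0.64 with 0.01 added.

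RNA of the ligand was far more abundant than RNA of its receptor in each cortex, and the proteins were not measured. Per length, the FPKM of *Apln* exceeded that of *Aplnr* between 53.8-fold and 503.2-fold in single animals. The *Aplnr* values rest on about 2.2 to 12.5 fragments, so the size of this ratio is imprecise. The highest ratio was in CrT+/y replicate 3, where *Aplnr* had about 2.2 fragments. *Apela*, which encodes the alternative ligand, was listed at 0 in 4 of the 7 animals, 2 of each genotype. The other animals had 0.0573 and 0.0418 FPKM in CrT-/y and 0.0581 FPKM in CrT+/y, about 1 fragment each, so no level of *Apela* could be compared.

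**Figure D1:**
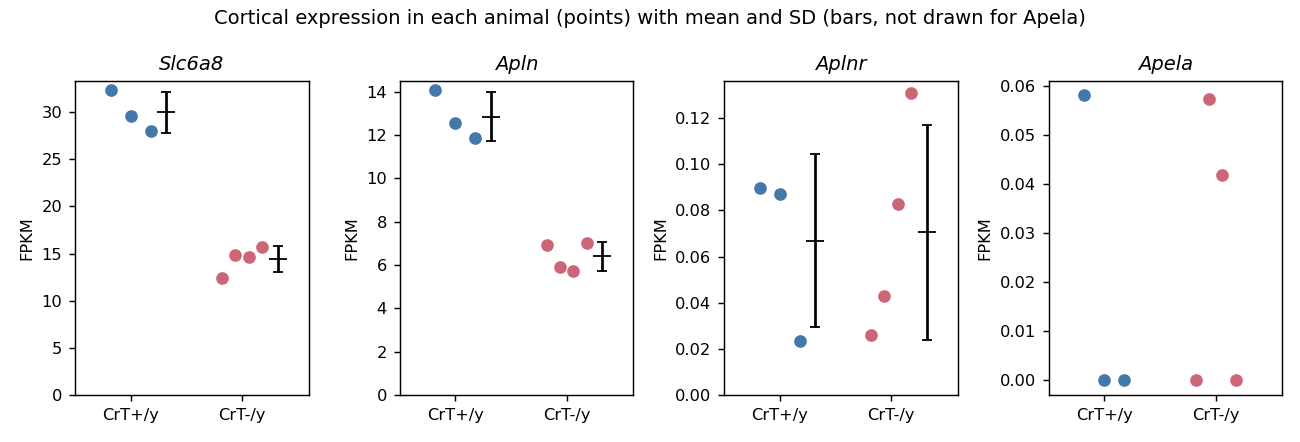
FPKM of Slc6a8, Apln, Aplnr and Apela in each animal (points), with mean and SD (black bars) for the first 3 genes; the vertical axes differ in range. Apln ranges from 5.73 to 7.04 FPKM in CrT-/y mice (n = 4) and from 11.9 to 14.1 FPKM in CrT+/y mice (n = 3), while the Aplnr values of the genotypes overlap at or below 0.131 FPKM.

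Some genes followed the course of *Apln* over the 7 animals. Likeness was measured as the root mean square difference between log2 deviations from each gene's own mean, with a median of 0.503 over 12987 genes. The closest gene was *Slc6a8* itself (0.156), followed by *Hapln4*, a link protein of the perineuronal net (0.159), *Chordc1*, a cochaperone of Hsp90 (0.167), *Gm765* (0.172) and *Rngtt*, the mRNA capping enzyme (0.182). *Chordc1* averaged 19.6 ± 0.395 FPKM in CrT-/y and 33.8 ± 2.20 FPKM in CrT+/y animals, and *Hapln4* 33.6 ± 5.00 and 55.9 ± 6.25 FPKM. All of these profiles are led by the genotype difference on which *Apln* was chosen, so they carry no test. The closest to *Aplnr* were *Taf10* (0.1), *Hes1* (0.121), *Traf5* (0.142), *Ctsk* (0.144) and *Nid2* (0.145). As few as 2.2 fragments stand behind an *Aplnr* value, so this order is a weak description.

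**Figure D2:**
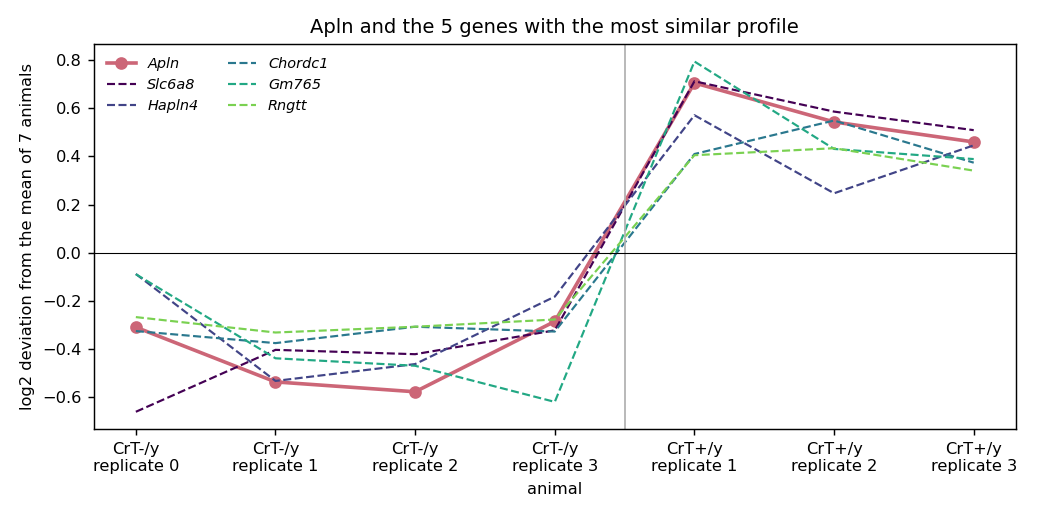
Deviation of log2(FPKM + 0.1) from each gene's mean over the 7 animals (vertical axis) for Apln (solid line) and the 5 genes of most similar profile (dashed), by animal; lines only join the points of a gene. All 6 genes lie below their mean in each CrT-/y mouse (n = 4) and above it in each CrT+/y mouse (n = 3).

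None of the genes that cut the apelin precursor or degrade its peptides passed the test. The list holds 10 genes, of which 8 were tested, with 5 higher and 3 lower in CrT-/y animals and a median log2 fold change of 0.08, against -0.03 over all tested genes, and 1 of them, higher, had an unadjusted limma p under 0.05, as did 8.19% of all tested genes in that direction. *Furin*, a convertase that can cleave proapelin, was at 9.64, 9.66, 10.1 and 9.25 FPKM in CrT-/y replicates 0 to 3 and at 8.24, 8.84 and 8.78 FPKM in CrT+/y replicates 1 to 3. These groups did not overlap, as in 21.6% of all tested genes in either direction, 15% being lower in CrT-/y animals. The difference of 0.16 (log2) missed the threshold (limma adjusted p = 0.154). The related convertases *Pcsk5* (log2 fold change 0.22) and *Pcsk7* (0.14) also did not overlap between genotypes, with limma adjusted p of 0.205 and 0.256. These 3 were the tested genes of the list without overlap, and all 3 were higher in CrT-/y animals. That is the less frequent direction: of the 2801 tested genes without overlap, 1948 were lower. *Pcsk6* (-0.15), *Pcsk1* (-0.11) and *Pcsk2* (0.08), the last a convertase of neuronal secretory granules, overlapped, with limma adjusted p between 0.367 and 0.577.

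Among the peptidases, *Mme*, which encodes neprilysin, differed by 0.08 (log2, limma adjusted p = 0.861). *Ace*, the angiotensin-converting enzyme, was at 4.13 to 5.28 FPKM in the CrT-/y group and at 3.68, 8.82 and 3.78 FPKM in CrT+/y replicates 1 to 3. The high value is that of the animal with the high choroid plexus markers. Its log2 fold change was -0.07 (limma adjusted p = 0.891), and without CrT+/y replicate 2 it turned to 0.33 (limma adjusted p = 0.139). *Klkb1*, plasma kallikrein, lay between 0 and 0.0888 FPKM, below the filter.

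Downstream of the receptor, G-protein subunits, arrestins, receptor kinases, phospholipases and the kinases they feed were followed with a list of 37 genes, all tested. In CrT-/y animals 3 of them fell and none rose, 8.11% of the list against 7.25% lower calls among all tested genes. The median was -0.06 (log2), with 23 genes lower and 14 higher, and it turned to 0.0025 with quantile normalization. At an unadjusted limma p under 0.05, 11 of the 37 genes were lower and 3 higher, where 16.8% of all tested genes were lower and 8.19% higher. *Plcb4*, a phospholipase C activated by Gq proteins, was at 14.8, 14.8, 14.0 and 15.8 FPKM in CrT-/y replicates 0 to 3 and at 24.3, 21.7 and 17.9 FPKM in CrT+/y replicates 1 to 3, with no overlap (log2 fold change -0.51, SE 0.096, limma adjusted p = 0.0353). *Akt2*, a kinase of the insulin and growth factor pathway, fell from 35.4 ± 2.70 to 29.8 ± 1.24 FPKM (limma adjusted p = 0.0674). *Pik3ca*, the catalytic subunit of phosphoinositide 3-kinase alpha, fell from 13.3 ± 1.03 to 11.3 ± 0.223 FPKM (limma adjusted p = 0.0856). The call was lost in 11 of 17 other settings for *Akt2* and in 12 of 17 for *Pik3ca*. Leaving out CrT-/y replicate 1 or 2 gave 0 calls in the list, leaving out CrT-/y replicate 0 or 3 or CrT+/y replicate 1 gave 1 call, and leaving out CrT+/y replicate 3 gave 13.

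Because *Apln* is known from endothelial cells, markers of brain endothelium were read beside it. Which cells of this cortex express *Apln* was not tested. Of 29 tested endothelial genes 6 fell in CrT-/y animals and none rose, 20.7% of the list against 7.25% lower calls among all tested genes. In the list 23 genes were lower and 6 higher, with a median of -0.14 (log2), which kept its sign under each scaling tried. Groups that did not overlap and were lower in CrT-/y were found for 7 of the 29, against 15% of all tested genes. At an unadjusted limma p under 0.05, 8 of the 29 were lower and 3 higher, beside the 16.8% and 8.19% of all tested genes. *Sox18*, a transcription factor of endothelial development, fell from 8.33 ± 0.628 to 5.83 ± 0.421 FPKM (log2 fold change -0.51, SE 0.085, limma adjusted p = 0.028). *Podxl*, a sialomucin of the luminal membrane, fell from 12.4 ± 0.841 to 9.18 ± 0.526 FPKM (limma adjusted p = 0.0291). *Flt1*, which encodes VEGF receptor 1, fell from 15.1 ± 1.58 to 11.3 ± 0.714 FPKM (limma adjusted p = 0.0417). The remaining 3, named after their values were seen, were *Eng* (log2 fold change -0.33), *Pecam1* (-0.31) and *Ly6c1* (-0.33). The count became 0 when CrT-/y replicate 1 was left out, 2 for CrT-/y replicate 2 or CrT+/y replicate 1, and 10 for CrT+/y replicate 3.

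The summed level of the endothelial list was 341 to 355 FPKM in CrT-/y and 363 to 389 FPKM in CrT+/y animals. The groups did not overlap, and the CrT-/y mean was 92.0% of the wild-type mean, while that of *Apln* was 49.8%. Set against this sum, *Apln* amounted to 1.97%, 1.73%, 1.66% and 1.98% in CrT-/y replicates 0 to 3 and to 3.66%, 3.47% and 3.05% in CrT+/y replicates 1 to 3. This ratio averaged 1.84% ± 0.166 (SD, n = 4) and 3.39% ± 0.313 (SD, n = 3), so in CrT-/y animals it was 54.1% of that in CrT+/y animals. The ratio reuses the *Apln* levels on which the gene was chosen and carries no test. In bulk cortex, fewer cells of a type and less RNA per cell cannot be told apart. The study also sequenced single nuclei from the cortex of CrT-/y and CrT+/y mice of this age. Its authors reported similar cell composition in both genotypes and found no endothelial genes that differed. Those nuclei were not analysed here. Summed markers of oligodendrocyte precursors also did not overlap (64.3 to 77.7 FPKM in CrT-/y, 78.4 to 84.6 FPKM in CrT+/y animals). Those of excitatory neurons (1506 to 1638 against 1528 to 1864 FPKM), astrocytes (330 to 384 against 336 to 393 FPKM), oligodendrocytes (792 to 1209 against 1110 to 1454 FPKM) and microglia (73.6 to 76.5 against 70.9 to 82.6 FPKM) overlapped. So did markers of inhibitory neurons, meninges, red blood cells, striatum, olfactory bulb and hypothalamus, and no marker of these lists was at 0 in all 7 animals. The part of any of these in the *Apln* level was not tested.

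Genes of endothelial tip cells and vessel growth, the setting in which *Apln* is best known, were called about as often as all genes. Over both directions this was 10% of the list, against 10.1% of all tested genes. By direction, 2 of the 30 tested genes rose and 1 fell, beside 2.9% higher and 7.25% lower calls among all tested genes. At an unadjusted limma p under 0.05, 3 of the 30 were higher and 2 lower, beside 8.19% and 16.8% of all tested genes. The median was -0.07 (log2). *Efnb2*, an arterial ephrin, rose from 16.4 ± 0.729 to 19.7 ± 0.934 FPKM (log2 fold change 0.26, limma adjusted p = 0.0564). *Angpt1*, a ligand of the endothelial receptor Tie2, rose from 1.75 ± 0.191 to 2.40 ± 0.231 FPKM (0.44, limma adjusted p = 0.0857), and *Flt1* is the gene that fell. The list shares *Flt1*, *Tek*, *Tie1* and *Kdr* with the endothelial list. Its count became 0 when CrT-/y replicate 1 or 2 or CrT+/y replicate 1 was left out, 1 for CrT-/y replicate 3 and 5 for CrT+/y replicate 3.

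Of 13 tested genes of pericytes and smooth muscle 1 fell (7.69%, against 7.25% lower calls among all tested genes), *Rgs5*, a regulator of G-protein signalling in pericytes. It was at 43.0, 36.1, 34.1 and 36.7 FPKM in CrT-/y replicates 0 to 3 and at 58.8, 48.4 and 42.0 FPKM in CrT+/y replicates 1 to 3 (log2 fold change -0.40, limma adjusted p = 0.0844). The groups overlapped, and the call was lost in 10 of 17 other settings.

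Targets of hypoxia-inducible factors, the class to which *Apln* belongs, were represented by 35 tested genes. Of these 1 fell and none rose, 2.86% against 7.25% lower calls among all tested genes. The median was -0.02 (log2), with 21 genes lower and 14 higher, and was above 0 with quantile normalization, median centring and upper quartile scaling. At an unadjusted limma p under 0.05, 6 of the 35 genes were lower and 0 higher, beside the 16.8% and 8.19% of all tested genes. The exception was *P4ha1*, a prolyl hydroxylase of collagen, at 9.17, 10.1, 10.4 and 8.49 FPKM in CrT-/y replicates 0 to 3 and at 14.5, 19.0 and 13.9 FPKM in CrT+/y replicates 1 to 3. No CrT-/y value reached the CrT+/y range (log2 fold change -0.71, SE 0.12, limma adjusted p = 0.026). Leaving out CrT+/y replicate 1 gave 2 calls and leaving out CrT+/y replicate 3 gave 11.

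None of 26 tested genes for other vasoactive peptides, their receptors and their converting enzymes passed the test that 10.1% of all tested genes passed, 19 of them being higher and 7 lower in CrT-/y animals (median 0.08, log2). At an unadjusted limma p under 0.05, 5 of the 26 were higher and 0 lower, beside the 8.19% and 16.8% of all tested genes. The smallest p belonged to *Nppc*, C-type natriuretic peptide, at 6.90, 7.00, 6.73 and 7.21 FPKM in CrT-/y replicates 0 to 3 and at 5.89, 3.52 and 5.65 FPKM in CrT+/y replicates 1 to 3 (log2 fold change 0.50, limma adjusted p = 0.103). *Ece2*, an endothelin-converting enzyme, differed by 0.31 (log2, limma adjusted p = 0.12). *Tac1*, the precursor of substance P, was at 28.7 to 40.1 FPKM in the CrT-/y group and at 10.8, 34.2 and 15.3 FPKM in CrT+/y replicates 1 to 3 (0.93, limma adjusted p = 0.119). Its high CrT+/y value was in the animal whose striatal markers were highest for that genotype (284 FPKM, against 75.2 and 144 FPKM). In CrT-/y replicates 0 to 3 these markers summed to 272, 327, 171 and 132 FPKM, the same order as their *Tac1* levels. The part of striatal tissue in either genotype was not tested. Without CrT+/y replicate 2, and with every CrT-/y animal kept, the difference in *Tac1* was 1.40 (limma adjusted p = 0.0195). The list then had 3 calls, against 6 without CrT+/y replicate 3.

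**Figure D3:**
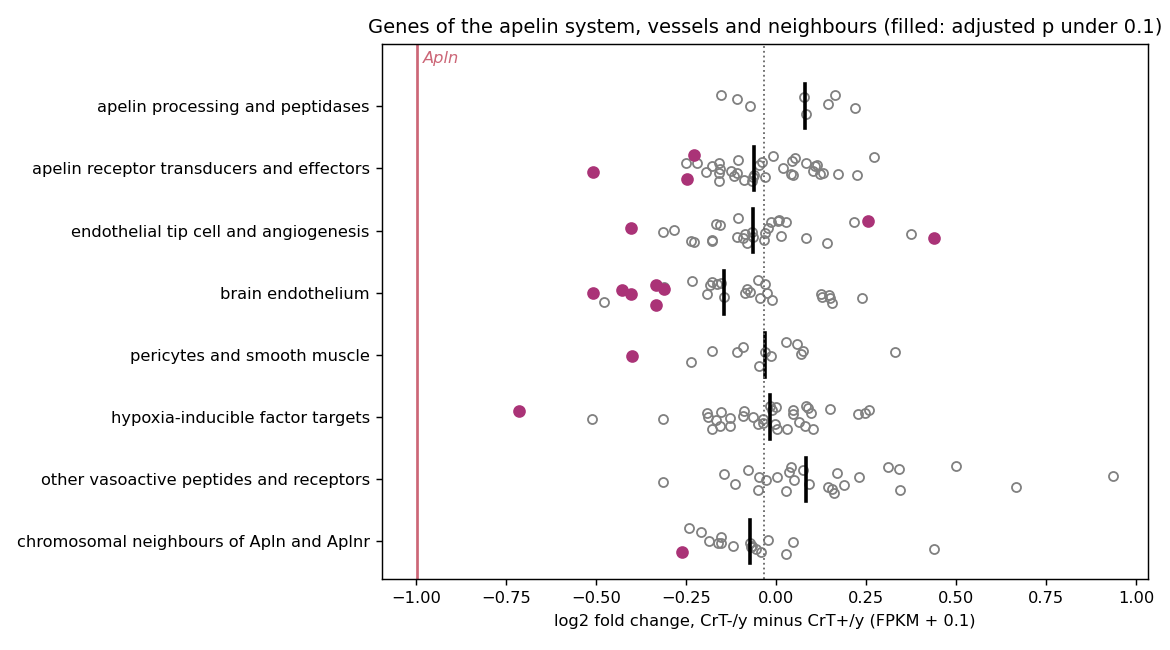
Log2 fold change (CrT-/y minus CrT+/y, FPKM + 0.1) of the tested genes of each list (circles, filled where the limma adjusted p is under 0.1), with the list's median (black bar), the median of all tested genes (dotted line) and Apln (red line). Apln at -0.996 lies to the left of each list gene, the lowest of which is P4ha1 at -0.71.

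*Apln* shares the X chromosome with the deleted gene, so the genes around it were read as well. For the 10 listed genes on each side of *Apln*, 12 of 20 were tested, with log2 fold changes between -0.26 and 0.44 and 9 lower in CrT-/y animals. At an unadjusted limma p under 0.05, 4 of the 12 were lower and 1 higher, beside the 16.8% and 8.19% of all tested genes. The call went to *Zdhhc9*, a palmitoyltransferase 137.1 kb away, at 20.3, 19.8, 20.4 and 19.2 FPKM in CrT-/y replicates 0 to 3 and at 22.8, 24.8 and 24.0 FPKM in CrT+/y replicates 1 to 3 (log2 fold change -0.26, SE 0.055, limma adjusted p = 0.0417). On the other side *Ocrl*, an inositol phosphatase 59.3 kb away, differed by -0.02 (limma adjusted p = 0.832), a direction that flipped with quantile normalization, upper quartile scaling and median centring. Of the 20 neighbours of *Aplnr*, 5 were tested, none passed and 0 had an unadjusted limma p under 0.05, while 8 were at 0 in all 7 animals. The nearest tested were *Lrrc55* at 22.4 kb (-0.16, limma adjusted p = 0.364) and *Tnks1bp1* at 63.2 kb (-0.07, limma adjusted p = 0.571). The count over both sets was 1 of 17 (5.88%), a lower call, against 7.25% lower calls among all tested genes. It became 0 when CrT-/y replicate 1, 2 or 3 was left out, and 6 for CrT+/y replicate 3.

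**Figure D4:**
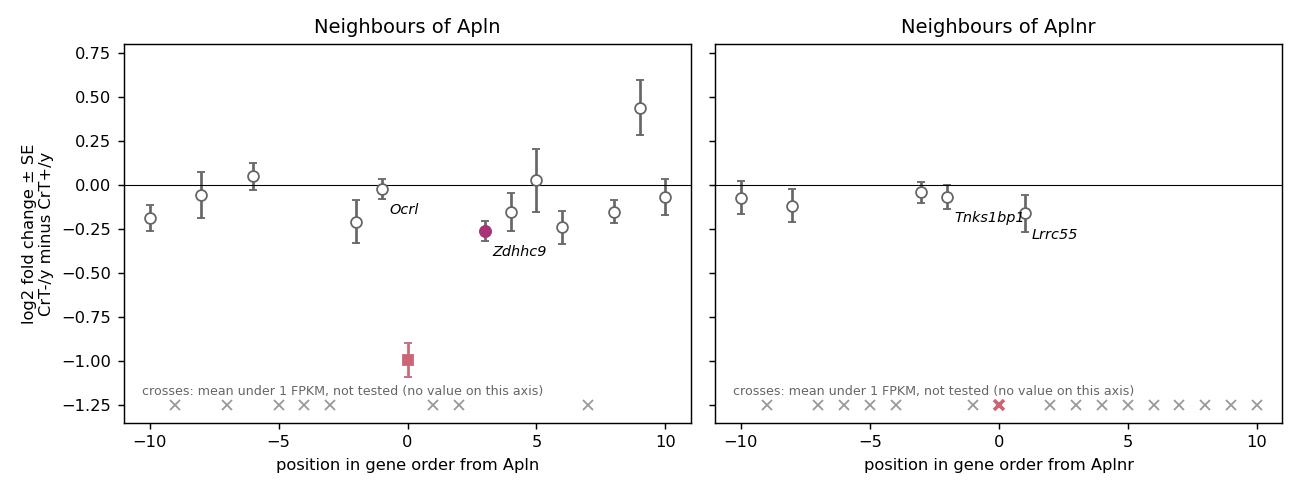
Log2 fold change with SE (CrT-/y minus CrT+/y) of the 10 listed genes on each side of Apln (left) and Aplnr (right), by position in gene order, with the filled circle marking an adjusted p under 0.1, the square Apln and the crosses genes with a mean under 1 FPKM. Apln at -0.996 lies below its tested neighbours, which range from -0.26 to 0.44.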

How the data were processed

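Total RNA from the cortex of each animal was made into libraries with the Universal Plus mRNA-Seq kit and sequenced as read pairs. Per the study's methods, the authors used the Tuxedo protocol with the assembly mm10, keeping uniquely aligned reads with at most 2 mismatches. The submitters' processing notes name Bowtie and Cuffnorm, with versions not given in the sources used here. The authors deposited FPKM for 24346 genes in 7 animals, and 0 columns were left unused. FPKM are already divided by transcript length and depth, so no count model was used.

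Groups came from the labels, and each library is a separate animal. To each FPKM 0.1 was added before log2. A mean of 1 FPKM or more was required, and the genes left were fitted on genotype with limma 3.58.1 (R 4.3.3, variance trend), with Benjamini-Hochberg adjustment over all 12988 and an adjusted p under 0.1 as threshold. Because 0.1 is added, fold changes of weakly expressed genes are understated. The fit was tested on simulated data. Python 3.11.15, numpy 2.4.6, scipy 1.17.1, pandas 2.3.3 and matplotlib 3.10.9 were used otherwise.

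Both genes and all lists were chosen with earlier results of these data known. Named were *Slc6a8*, the ligands and the receptor, all genes of lists of 10 or fewer, in longer lists the 3 called genes of smallest p in each direction (or, with none called, the 3 of smallest p), called and nearest tested neighbours, and the 5 genes most like each gene. The values of 1 untested gene that this rule names are not reported here. *Adrbk1*, *Adrbk2*, *Ctgf* and *Ero1l* are older symbols under which the table lists *Grk2*, *Grk3*, *Ccn2* and *Ero1a*. Positions and sequences come from GENCODE M21 of GRCm38, and primer sequences from the study's supplement. Fragments were estimated after the data had been examined: in transcripts of 800 to 6000 bases, FPKM times length in kb peaks at the worth of 1 fragment in each library. This covers counting error only.

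Alternatives were pseudocounts of 1 and 0.01, no filter, a required mean of 5 FPKM, median centring, upper quartile scaling, quantile normalization, no variance trend, array weights, a replicate block and each animal left out.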

Additional observations from a re-analysis of the deposited data

Results flagged for a closer look

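In groups of 4 animals, 1 animal stood apart from the other 3 in 2 of the 52 groups examined, and chance gives about 1 in 20. Both were CrT-/y replicate 1. Its *Angpt1* level was 2.06 FPKM, against 2.49 to 2.56 FPKM in the other CrT-/y animals, and its *Ece2* level was 5.54 FPKM, against 6.43 to 6.51 FPKM. Neither *Apln* nor *Aplnr* had such an animal.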

How the results depend on the processing

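*Apln* remained lower in CrT-/y animals in all 17 alternatives (-1.05 to -0.91, log2). *Aplnr* lay between -0.18 and 0.15 over 15 alternatives, and a mean of at least 5 FPKM gave no value for it. Its SE ranged from 0.042 with a pseudocount of 1 to 0.64 with a pseudocount of 0.01. The 1318 calls over all genes became 353 with no filter, where more genes were tested, 576 with the replicate block, and 64 to 3736 with 1 animal left out. The replicate numbers were taken not to pair the animals. The deviations of animals with the same number correlated at -0.078, 0.046 and -0.051, and those with different numbers at -0.202 to 0.247. Such correlations cannot exclude that animals shared a litter. With no filter the list calls were 0 for effectors, tip cells and pericytes and 2 for endothelium. Under the block they were 1 for effectors, 1 for tip cells and 2 for hypoxia targets, and the neighbours' call was a gene that was higher in place of *Zdhhc9* (limma adjusted p = 0.104). Quantile normalization gave 0 for pericytes, 2 for hypoxia targets and 1 for vasoactive genes, upper quartile scaling 1 for peptidases, 0 for pericytes and 3 for vasoactive genes, and median centring 1 for effectors, 0 for pericytes and 1 for vasoactive genes. Without a variance trend there was 1 for effectors and 0 for pericytes. Array weights gave 6 for effectors, 2 for hypoxia targets, 2 for vasoactive genes and 3 for neighbours. A pseudocount of 1 and a mean of at least 5 FPKM each gave 3 for hypoxia targets and 1 for vasoactive genes. With 1 animal left out the calls ranged from 0 to 1 for peptidases, 0 to 13 for effectors, 0 to 5 for tip cells, 0 to 10 for endothelium, 0 to 1 for pericytes, 1 to 11 for hypoxia targets, 0 to 6 for vasoactive genes and 0 to 6 for neighbours. Reversed were *Pcsk2* (-0.0028) and *Ace* (0.334) without CrT+/y replicate 2, *Mme* without CrT-/y replicate 1 (-0.0505) and CrT+/y replicate 1 (-0.0966), and *Ocrl* under quantile normalization (0.0203), upper quartile scaling (0.0291), median centring (0.0146) and without CrT+/y replicate 2 (0.00516). With 1 animal left out, these genes ranged from -0.0028 to 0.13 (*Pcsk2*), -0.286 to 0.334 (*Ace*), -0.0966 to 0.321 (*Mme*) and -0.0675 to 0.00516 (*Ocrl*). The cause was not tested. The list medians changed sign for effectors with quantile normalization (0.00248), for pericytes with median centring (0.00557), upper quartile scaling (0.0195) and without CrT+/y replicate 2 (0.0297), and for hypoxia targets with quantile normalization (0.0136), median centring (0.0202) and upper quartile scaling (0.0308). The few fragments behind *Aplnr* and *Apela* limit what their levels can show.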
